A study of Mus musculus with 28 samples.

Results

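The integrated stress response genes described here are 10 genes of the ATF4 programme, Atf3, Atf4, Atf5, Ddit3, Trib3, Chac1, Asns, Sesn2, Nupr1 and Gdf15, out of 53342 gene identifiers counted in mouse cerebral cortex. They were chosen by name as ATF4-type stress genes, with a rise in astrocytes of conditional knockout (cKO) mice as part of the choice. The study asked what loss of the targeted gene does to gene expression in astrocytes. The cKO mice carried mGFAP-Cre, in which the murine Gfap promoter drives the recombinase, together with 2 floxed alleles of the targeted gene (loxP/loxP). The Ctrl mice were sex-matched littermates with 2 floxed alleles or 1 (loxP/loxP or loxP/+), so a floxed allele was present in every mouse. Bulk RNA-Seq was performed on cortex from 4 cKO and 4 Ctrl mice at postnatal day 17 (P17) and from 4 and 4 at P24. Translating ribosome affinity purification (TRAP) was performed at P24 on 3 cKO and 3 Ctrl mice whose mGFAP-Cre cells carry a green fluorescent ribosomal protein. In TRAP the tagged ribosomes with their mRNA form the immunoprecipitated (IP) fraction, and the whole cortical lysate of the same mouse forms the Input. The TRAP Ctrl mice, unlike the bulk Ctrl mice, need mGFAP-Cre for the tag. With mGFAP-Cre the paper calls loxP/+ mice conditional heterozygotes and loxP/loxP mice cKO. The floxed alleles of the TRAP Ctrl mice are therefore not settled by the paper. Each library came from 1 mouse.

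The integrated stress response begins when 1 of several kinases (PERK, GCN2, PKR or HRI) phosphorylates the translation factor eIF2. Most protein synthesis then falls, while mRNAs with upstream open reading frames, among them those of Atf4 and Atf5, are translated more. The transcription factor ATF4 then induces genes for amino acid supply, redox balance, feedback and, when stress lasts, cell death. Because ATF4 is set largely at the level of translation, its mRNA level does not report its activity. In the brain, mutations in eIF2B, the exchange factor on which the response acts, cause a leukodystrophy in which astrocytes are affected.

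ATF4 binds DNA with C/EBP proteins at a C/EBP-ATF response element, whose core was searched here as TGATGNAA (N is any base) on both strands of the 250 bases before each annotated start. The promoters came from RefSeq (GRCm38.p6), and all 10 genes matched, with 12 starts between them. The element was found once each before Atf3, Chac1, Asns and Nupr1, which is 4 of the 12 windows, against 3.45% of 32851 windows of the same length over all genes. The full cAMP response element TGACGTCA, searched in the same way, was in none of the 12 and in 1.55% of all windows. The 4 matches are shown because they include genes that were higher in cKO IP libraries (Atf3, Chac1 and Nupr1) and 1 that overlapped between genotypes (Asns). They are printed 5′ to 3′ on the gene's strand with the element in capitals, and TTGCATCA is the element read from the other strand. The windows of Asns and Nupr1 hold annotated exon sequence and are cut to 30 bases.
Atf3, chr1:191183386-191183493, minus strand: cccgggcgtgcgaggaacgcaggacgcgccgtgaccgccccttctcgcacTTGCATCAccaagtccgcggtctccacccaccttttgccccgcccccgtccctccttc
Chac1, chr2:119350999-119351106, plus strand: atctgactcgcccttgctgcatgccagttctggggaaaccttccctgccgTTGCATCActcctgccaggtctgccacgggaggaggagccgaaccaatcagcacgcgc
Nupr1, chr7:126625562-126625591, minus strand: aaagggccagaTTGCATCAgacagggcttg
Asns, chr6:7693214-7693243, minus strand: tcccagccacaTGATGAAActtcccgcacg
A match of letters is a description of the window and not a bound site, and the absence of these letters says nothing about ATF4 at the other 6 genes.

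The libraries held 8855488 to 11454729 counts at P17, 12603888 to 14575306 at P24 and 18433087 to 27242445 in TRAP, so that 3 counts correspond to 0.106 to 0.339 CPM, the read count relative to library size. Levels below are CPM after trimmed-mean (TMM) scaling, and the libraries are listed in the order of their replicate numbers. The summed level of 9 astrocyte markers was 10124 to 12838 CPM in Ctrl IP against 963 to 1115 in Ctrl Input. In cKO mice it was 10291 to 13217 CPM in IP and 1441 to 1982 in Input, so the Input groups did not overlap. Single astrocyte markers went both ways, with 1 called higher and 3 lower in cKO IP, 3 higher and 2 lower in P24 bulk, and 1 higher in Input libraries. Markers of the other cell types remained in the IP, with 8 neuron markers at 2444 to 2970 CPM in Ctrl and 2477 to 2561 in cKO libraries. The 8 microglia markers summed to 128 to 151 CPM in Ctrl IP and 138 to 259 in cKO IP libraries. The 4 macrophage markers summed to 3.08 to 5.36 and 5.51 to 7.47 CPM, also without overlap. A pair of libraries stood apart in what their removal did: without P24 bulk cKO replicate 1 the calls over all genes went from 388 to 950, and without Input cKO replicate 1 from 26 to 112. Without the first, Gdf15, Nupr1 and Atf5 stayed called in P24 bulk, higher by 5.80, 2.83 and 0.69 on the log2 scale (adjusted p = 2.09e-06, 5.91e-07 and 0.0183), and without the second Nupr1 stayed called in Input at 2.20 (adjusted p = 0.00153). None of the marker genes was at 0 in any group, and the part of these cell types in the results below was not tested.

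In cortex at P24, 3 of the 10 genes rose in cKO mice: Gdf15, Nupr1 and Atf5. This is 3 of 10, of which 9 passed the filter on low counts (Gdf15 only through the cKO group), against 1.26% of 22495 genes called higher (1.72% in either direction; edgeR quasi-likelihood test, adjusted p under 0.05 over all genes tested). All cKO libraries lay above all Ctrl libraries for these 3 and Sesn2, as for 4.25% of the genes tested. At P17 none of the 10 was called, and 7 passed the filter, against 0.0943% of 21201 genes. In Input libraries Nupr1 alone of the 10 was called, against 0.0923% of 23828 genes called higher (0.109% in either direction). The Input groups lay apart upward for 3 members, against 6.59% of genes, and downward for 1, against 5.29%. In the IP, the comparison that entered the choice of the genes, 8 of the 10 were called higher, beside 11.6% of 23864 genes (20.0% in either direction). The same 8 lay apart upward, beside 19.0% of genes, and nothing is read from these counts. The members were chosen with earlier results of these data known, so their counts in bulk and Input libraries are descriptions as well. Atf4 and Asns were the 2 genes that were called in none of these 4 comparisons and overlapped between genotypes in each. The median log2 fold change of the tested members was 0.35 in P24 bulk, 0.08 in P17 bulk, 0.10 in Input and 1.28 in IP, where the median over all genes lay between -0.01 and 0.01.

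**Figure D1:**
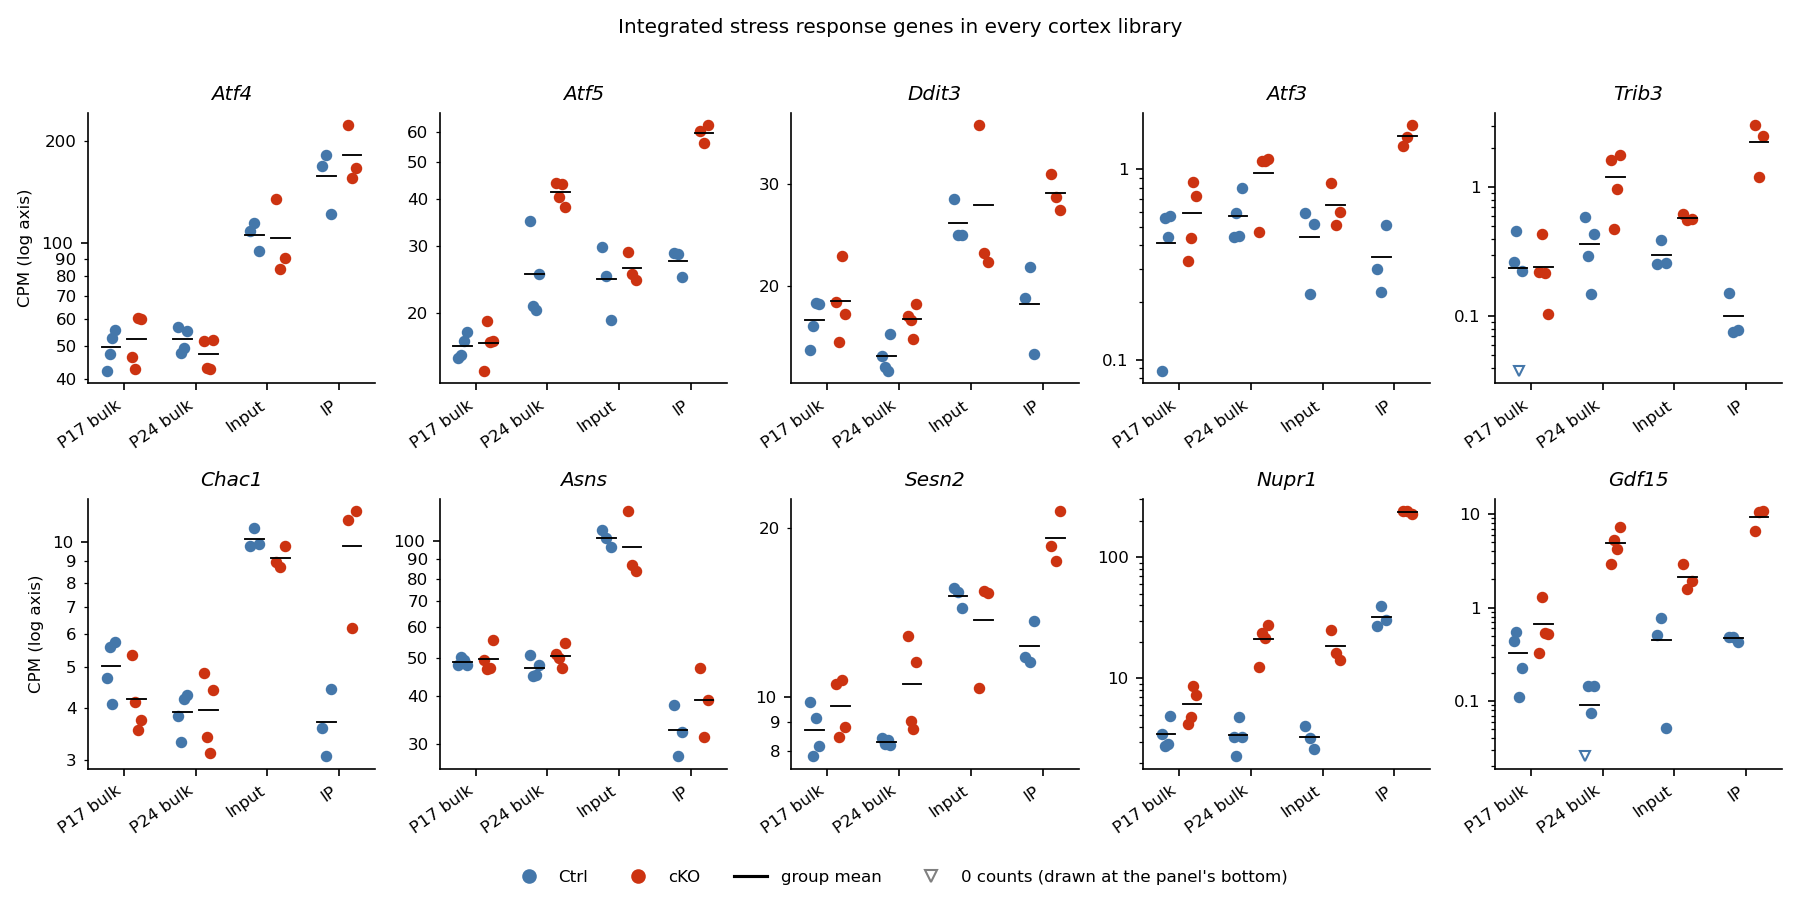
Level of each gene (CPM, log axis, a separate scale per panel) in all 28 libraries, with Ctrl in blue, cKO in red and a black line at each group mean. Nupr1 and Gdf15 lie higher in cKO than in Ctrl libraries in P24 bulk, Input and IP, while Atf4 and Asns overlap in every kind of library.

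The regulators are described first, with gene positions in GRCm38 as annotated by GENCODE. Atf4 (chr15:80255184-80257541), the transcription factor at the centre of the response, stood at 57.0, 47.5, 49.2 and 55.4 CPM in P24 bulk Ctrl and at 51.8, 43.1, 42.7 and 51.9 CPM in cKO libraries. The groups overlapped, and the log2 fold change was -0.14 ± 0.09 (SE, n = 4 and 4, adjusted p = 0.531). At P17 it was 42.2, 47.3, 52.8 and 55.5 CPM in Ctrl against 46.2, 42.7, 60.2 and 59.8 in cKO mice. The log2 fold change of 0.08 ± 0.12 was again smaller than the spread between mice (adjusted p = 1.00). In the IP, Atf4 measured 169, 182 and 122 CPM in Ctrl and 222, 155 and 166 CPM in cKO libraries, a log2 fold change of 0.21 ± 0.16. In Input it measured 109, 115 and 95.1 CPM against 135, 84.3 and 90.6 CPM. The Atf4 mRNA was thus abundant in every group and overlapped between genotypes in all 4 kinds of library.

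Atf5 (chr7:44812256-44816658) encodes a related factor that, like ATF4, is translated under stress, and it acts in the mitochondrial stress response. It stood at 34.8, 20.8, 20.3 and 25.2 CPM in P24 bulk Ctrl and at 44.0, 40.4, 43.8 and 37.9 CPM in cKO libraries. All 4 cKO mice lay above all 4 Ctrl mice, and Atf5 rose by 0.72 ± 0.14 on the log2 scale (adjusted p = 0.0224; exact two-sided permutation p = 0.0286, the smallest that 4 against 4 allows). Without any 1 of 5 libraries, cKO replicates 2 and 3 or Ctrl replicates 2, 3 and 4, the call was lost at adjusted p = 0.0579 to 0.0763. At P17 the cKO values of 14.0, 19.0, 16.7 and 16.8 CPM overlapped Ctrl values of 15.2, 15.5, 16.9 and 17.8 CPM (log2 fold change 0.03 ± 0.10, adjusted p = 1.00). In the IP it measured 28.8, 28.6 and 24.8 CPM in Ctrl and 60.5, 56.2 and 62.5 CPM in cKO libraries, a log2 fold change of 1.13 ± 0.10. The Input groups overlapped at 29.7, 24.9 and 19.1 against 28.8, 25.3 and 24.3 CPM. Atf5 shares 571 bases with Nup62 and 272 with Il4i1 on the opposite strand, and since the sources do not state whether counting used strand, reads of these genes cannot be told apart.

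Ddit3 (chr10:127290774-127296288) encodes CHOP, the factor linked to cell death under lasting stress. In P24 bulk it was 15.1, 14.5, 14.2 and 16.5 CPM in Ctrl against 17.7, 17.4, 16.2 and 18.6 CPM in cKO libraries. A single cKO library lay below the highest Ctrl library, and the log2 fold change of 0.21 ± 0.07 did not pass the test (adjusted p = 0.223). In the IP it was 19.1, 21.5 and 15.2 CPM in Ctrl and 31.3, 28.5 and 27.1 CPM in cKO libraries, a log2 fold change of 0.65 ± 0.13. Input cKO replicate 1, at 38.0 CPM, stood apart from 22.7 and 21.9 CPM in the other two and from 28.2, 24.5 and 24.5 CPM in Ctrl mice. Ddit3 overlaps Mars by 68 bases on the opposite strand and the transcript model Gm4189, so its counts carry the same uncertainty. A second gene model named Ddit3 shares 2925 bases with it on the same strand, which a strand setting would not separate, and is not analysed here.

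Atf3 (chr1:191170296-191218039), an early stress factor that ATF4 induces, was rare everywhere. In P24 bulk the Ctrl libraries held 6, 8, 6 and 11 counts and the cKO libraries 7, 14, 16 and 16, which is 0.440 to 0.799 against 0.470 to 1.14 CPM. The groups overlapped through cKO replicate 1, and the log2 fold change was 0.73 ± 0.34 (adjusted p = 0.391). In the IP the Ctrl libraries held 8, 6 and 13 counts and the cKO libraries 31, 33 and 44, or 0.301, 0.226 and 0.507 against 1.32, 1.48 and 1.71 CPM. The groups lay apart with a log2 fold change of 2.12 ± 0.34, while in Input they overlapped (0.222 to 0.590 against 0.510 to 0.844 CPM). At P17, with 1 to 8 counts per library, Atf3 did not pass the filter.

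Trib3 and Chac1 are induced by ATF4 and CHOP. Trib3 (chr2:152337422-152344032) encodes a pseudokinase that restrains AKT and ATF4, and Chac1 (chr2:119351229-119354381) an enzyme that breaks down glutathione. Trib3 held 4, 2 and 2 counts in Ctrl IP and 71, 27 and 64 counts in cKO IP libraries, or 0.15, 0.0755 and 0.0780 against 3.02, 1.21 and 2.48 CPM. The ratio of the summed counts was 22.3 (95% interval 11.03 to 52.4, exact binomial, counting error only), and Trib3 passed the filter there only through the cKO group. In P24 bulk it had 8, 4, 2 and 6 counts in Ctrl and 24, 6, 14 and 25 in cKO mice, too few for the filter. A fit without the filter gave a log2 fold change of 1.71 ± 0.43 (adjusted p = 0.0390). The groups overlapped in a single library, cKO replicate 2 at 0.476 CPM. In Input the cKO libraries, at 0.622, 0.553 and 0.564 CPM, all lay above Ctrl libraries at 0.253, 0.389 and 0.257 CPM, but the log2 fold change of 0.96 ± 0.39 did not pass the test (adjusted p = 0.812). In Input, too, Trib3 passed the filter only through the cKO group. At P17 no library held more than 5 counts, and no fold change is given.

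The Chac1 groups overlapped in bulk cortex at both ages. In P24 bulk it was 3.81, 3.30, 4.19 and 4.29 CPM in Ctrl against 4.84, 3.41, 3.12 and 4.42 CPM in cKO mice (log2 fold change 0.02 ± 0.17, adjusted p = 0.977). At P17 the values were 4.71, 5.61, 4.08 and 5.77 against 5.37, 4.13, 3.54 and 3.73 CPM (log2 fold change -0.27 ± 0.18, adjusted p = 1.00). In Input the 3 cKO libraries, at 8.98, 8.72 and 9.77 CPM, lay just below the Ctrl libraries at 9.78, 10.8 and 9.91 CPM, with a log2 fold change of -0.15 ± 0.16 (adjusted p = 0.8293). In the IP, Chac1 was 3.57, 3.06 and 4.45 CPM in Ctrl and 11.3, 6.22 and 11.9 CPM in cKO libraries, a log2 fold change of 1.42 ± 0.24. Of the 8 genes that were higher in cKO IP libraries, Chac1 was the only one whose Input groups lay apart in the opposite direction.

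**Figure D2:**
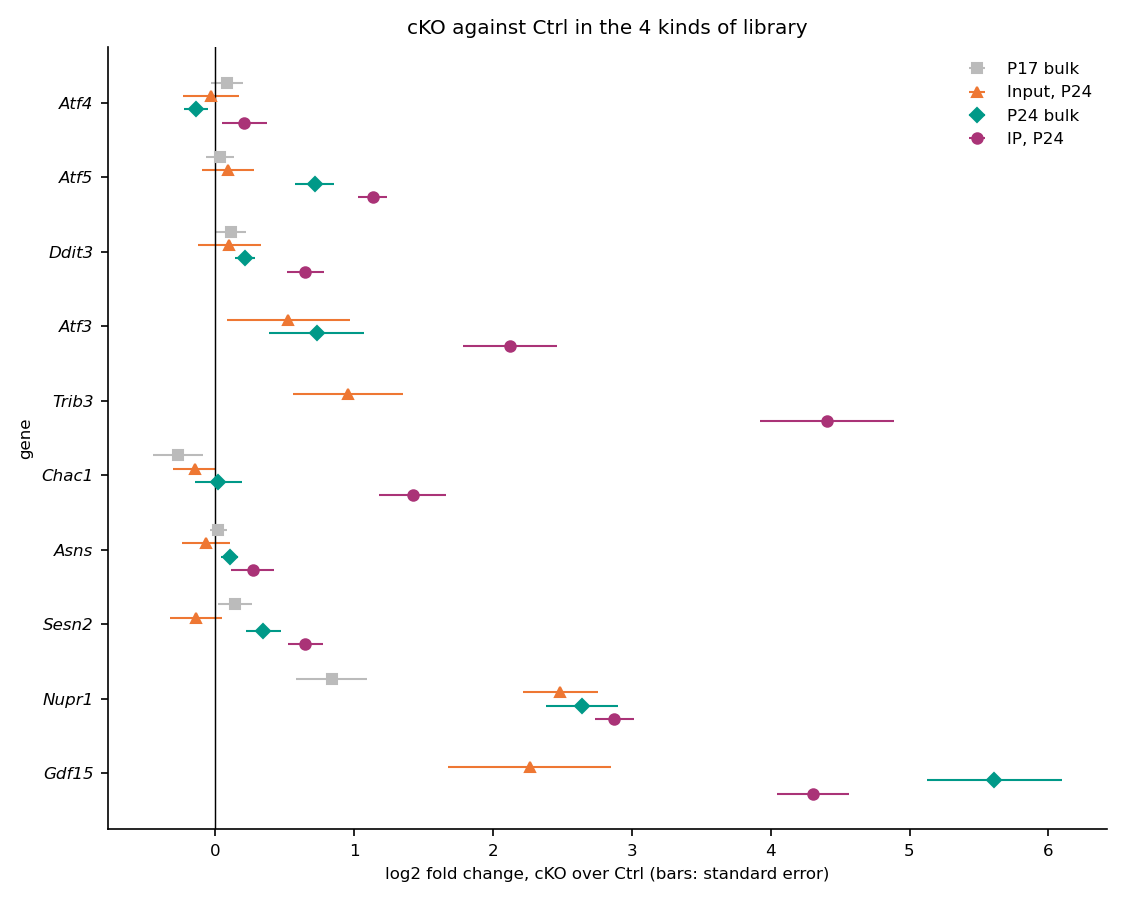
Log2 fold change of cKO over Ctrl for each gene in P17 bulk, Input, P24 bulk and IP libraries, with bars of 1 standard error; genes that did not pass the filter have no point. The IP points range from 0.21 for Atf4 to 4.41 for Trib3, and the P17 points from -0.27 for Chac1 to 0.84 for Nupr1.

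Asns and Sesn2 belong to the amino acid arm. Asns (chr6:7675169-7693254), which encodes asparagine synthetase and is the classic target of the amino acid response, stood at 50.8, 44.9, 45.2 and 47.9 CPM in P24 bulk Ctrl and at 51.1, 49.9, 47.1 and 54.5 CPM in cKO mice. The groups overlapped with a log2 fold change of 0.10 ± 0.06 (adjusted p = 0.543). At P17 the log2 fold change was 0.02 ± 0.06, with 47.9 to 50.3 CPM in Ctrl and 46.7 to 55.5 CPM in cKO libraries. In the IP it was 37.8, 27.9 and 32.2 CPM in Ctrl and 47.0, 31.3 and 38.9 CPM in cKO libraries, which overlapped (log2 fold change 0.27 ± 0.15). In Input it was 107, 102 and 96.4 CPM in Ctrl against 120, 86.8 and 83.9 CPM in cKO libraries.

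Sesn2 (chr4:132492032-132510501) encodes sestrin 2, a leucine sensor that restrains mTORC1. In P24 bulk the Ctrl libraries lay close together at 8.43, 8.22, 8.38 and 8.21 CPM and the cKO libraries at 12.8, 9.04, 8.73 and 11.5 CPM. All cKO mice lay above all Ctrl mice, but the log2 fold change of 0.35 ± 0.13 did not pass the test over all genes (adjusted p = 0.252; exact permutation p = 0.0286). At P17 the groups overlapped at 7.82 to 9.77 against 8.47 to 10.7 CPM (log2 fold change 0.14 ± 0.12). In the IP Sesn2 was 11.8, 11.5 and 13.7 CPM in Ctrl and 18.6, 17.4 and 21.5 CPM in cKO libraries, a log2 fold change of 0.65 ± 0.13. In Input the groups overlapped, and cKO replicate 1 stood low at 10.4 CPM beside 15.4 and 15.3 CPM. The noncoding model Gm12981 overlaps Sesn2.

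Nupr1 (chr7:126623249-126630861) encodes a small chromatin protein of the stress response that is induced through ATF4. In P24 bulk it was 3.30, 2.27, 4.79 and 3.27 CPM in Ctrl and 12.4, 23.6, 21.5 and 27.7 CPM in cKO mice. All cKO libraries lay above all Ctrl libraries, and Nupr1 rose by 2.64 ± 0.26 on the log2 scale (adjusted p = 0.000275; exact permutation p = 0.0286). In Input it was 4.05, 3.22 and 2.62 CPM in Ctrl against 24.9, 16.3 and 14.3 CPM in cKO libraries. Nupr1 rose there by 2.48 ± 0.27 (adjusted p = 0.0257; exact permutation p = 0.1, the smallest that 3 against 3 allows). The call was lost without Ctrl replicate 1, 2 or 3, at adjusted p = 0.104, 0.212 and 0.268, with log2 fold changes of 2.68, 2.47 and 2.35. The summed astrocyte markers were also higher in cKO Input libraries, as given above, and their part in this result was not tested. In the IP Nupr1 measured 27.1, 39.4 and 30.4 CPM in Ctrl and 241, 241 and 225 CPM in cKO libraries, a log2 fold change of 2.87 ± 0.14. In these bulk tissues more RNA per cell and more cells with the RNA cannot be told apart.

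At P17 Nupr1 was 3.49, 2.76, 2.86 and 4.86 CPM in Ctrl and 4.16, 4.78, 8.58 and 7.26 CPM in cKO mice. The cKO libraries 3 and 4 lay above every Ctrl library and the other two did not, so the groups overlapped. The log2 fold change was 0.84 ± 0.25, which missed the test over all genes (adjusted p = 0.793; exact permutation p = 0.0857). With the replicate number as a block, which pairs the P17 mice, it was 0.80 ± 0.19 (adjusted p = 0.0675), and the calls over all genes went from 20 to 109. Nupr1 was the only member with an unadjusted p under 0.05 at P17, and DESeq2 and the edgeR likelihood ratio test called none of the 10 either. Both made more false calls than the quasi-likelihood test on data simulated for P24 bulk and IP, and P17 was not simulated.

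Gdf15 (chr8:70629393-70632456) encodes a secreted hormone of the TGF-beta superfamily that signals stress through a hindbrain receptor. In P24 bulk the Ctrl libraries held 0, 2, 1 and 2 counts, all under 3, and the cKO libraries 44, 67, 61 and 102 counts, or 2.96, 5.31, 4.23 and 7.27 CPM. The ratio of the summed counts, 274 against 5, was 53.3 (95% interval 22.6 to 165, exact binomial, counting error only). Gdf15 rose in the test over all genes (adjusted p = 0.000127; exact permutation p = 0.0286). The fitted log2 fold change of 5.61 ± 0.48 depends on how such low counts are moderated, and Gdf15 passed the filter only through the cKO group. At P17 it held 5, 6, 1 and 2 counts in Ctrl and 3, 12, 5 and 5 in cKO mice, too few for the filter, and the groups overlapped at 0.110 to 0.552 against 0.329 to 1.30 CPM. In the IP it measured 0.489, 0.490 and 0.429 CPM in Ctrl and 6.60, 10.5 and 10.9 CPM in cKO libraries, a ratio of summed counts of 19.9 (95% interval 14.3 to 28.5). In Input it measured 0.506, 0.778 and 0.0513 CPM in Ctrl and 2.93, 1.57 and 1.94 CPM in cKO libraries. All cKO Input libraries lay above all Ctrl ones, but the log2 fold change of 2.27 ± 0.59 missed the test (adjusted p = 0.539). DESeq2, the likelihood ratio test and a fit without the filter on low counts called it (adjusted p = 0.0343, 0.0222 and 0.0280). DESeq2 and the likelihood ratio test made more false calls than the quasi-likelihood test on data simulated for P24 bulk and IP. Input was not simulated, and the fit without the filter used the quasi-likelihood test.

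The difference in the cKO effect between ages was tested directly in the bulk libraries as an interaction. None of the 9 members tested passed, against 0.0470% of 23395 genes called. For Gdf15 the P24 effect exceeded the P17 effect by 4.66 ± 0.92 on the log2 scale (adjusted p = 0.106), for Nupr1 by 1.80 ± 0.42 (adjusted p = 0.242) and for Atf5 by 0.68 ± 0.20 (adjusted p = 0.452). Gdf15 was below the filter at P17 and in P24 Ctrl mice and entered this fit through the P24 cKO group alone, so its values are no independent evidence of a difference between ages. These 3 genes were the members with an unadjusted p under 0.05. DESeq2, the likelihood ratio test, the fit without a filter and the fit with the replicate number as a block each called 2 of them, Gdf15 and Nupr1. With the block their adjusted p was 0.0109 and 0.0416, although same-numbered mice deviated together at P17 and not throughout at P24. Leaving out P24 cKO replicate 1, which was the lowest of its group for both genes, also brought both past the threshold (adjusted p = 0.00786 and 0.00595). Leaving out P24 Ctrl replicate 1 brought Atf5 past it (adjusted p = 0.0312). For the other 6 members the difference between ages ran from -0.23 for Atf4 to 0.29 for Chac1 with adjusted p of 0.910 to 0.994.

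The level of each mRNA in the tagged ribosomes relative to whole cortex was described by setting IP beside Input. In Ctrl mice 2 members, Nupr1 and Atf4, were higher in IP than in Input libraries, against 35.3% of 24385 genes, by 3.27 ± 0.19 and 0.56 ± 0.14 on the log2 scale (adjusted p = 3.39e-08 and 0.00369). Asns, Chac1, Ddit3 and Sesn2 were lower, against 35.7% of genes, at -1.65 ± 0.12, -1.47 ± 0.17, -0.48 ± 0.13 and -0.31 ± 0.12 (adjusted p = 1.85e-07, 8.17e-06, 0.00646 and 0.0371). The Sesn2 call was lost in 9 of the 14 other settings tried, with adjusted p up to 0.217, 4 of them a left-out library (Input Ctrl replicate 1 or 2, IP Ctrl replicate 1 or 2). The Ddit3 call was lost without IP Ctrl replicate 3 (log2 difference -0.30, adjusted p = 0.0517) and in a fit of all TRAP libraries (-0.47, adjusted p = 0.0516). Atf5, Atf3 and Gdf15 did not differ beyond the spread, at log2 differences of 0.14 ± 0.15, -0.40 ± 0.47 and 0.07 ± 0.58.

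In cKO mice 6 members were called higher in IP than in Input, beside 27.8% of 24011 genes, and this comparison shares the cKO IP libraries with the one that entered the choice. The log2 differences were 3.66 for Nupr1, 2.11 for Gdf15, 1.93 for Trib3, 1.19 for Atf3, 1.18 for Atf5 and 0.80 for Atf4. Asns was called lower at -1.32, beside 28.5% of genes, while Chac1 at 0.08, Ddit3 at 0.07 and Sesn2 at 0.47 were not called. Chac1, Ddit3 and Sesn2 were thus called below Input in Ctrl mice and not in cKO mice, which is no test of a difference between genotypes. Leaving out Input cKO replicate 1 brought Ddit3 past the threshold in cKO mice as higher in IP, at 0.36 (adjusted p = 0.0211), and leaving out IP cKO replicate 1 lost Atf4 (adjusted p = 0.0557). Using the mouse as a block, which pairs IP with Input, left 6 member calls in Ctrl and 7 in cKO mice, the numbers without it. As a description, the fraction by genotype interaction gave 3.44 ± 0.66 for Trib3, 2.03 ± 0.67 for Gdf15, 1.59 ± 0.57 for Atf3, 1.56 ± 0.31 for Chac1 and 1.04 ± 0.21 for Atf5. It gave 0.78 ± 0.23 for Sesn2, 0.54 ± 0.28 for Ddit3, 0.39 ± 0.30 for Nupr1, 0.33 ± 0.25 for Asns and 0.24 ± 0.29 for Atf4. For the 9 astrocyte markers this interaction was negative throughout, from -1.01 to -0.61 with a median of -0.80. The part of that shift in the member values was not tested. None of the 10 was called there by the quasi-likelihood test, beside 0.0582% of 25768 genes. An unadjusted p under 0.05 was reached by 6, and DESeq2 and the likelihood ratio test each called 3 (Atf5, Trib3 and Chac1). The simulated data, on which these other tests made more false calls, did not cover this interaction.

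**Figure D3:**
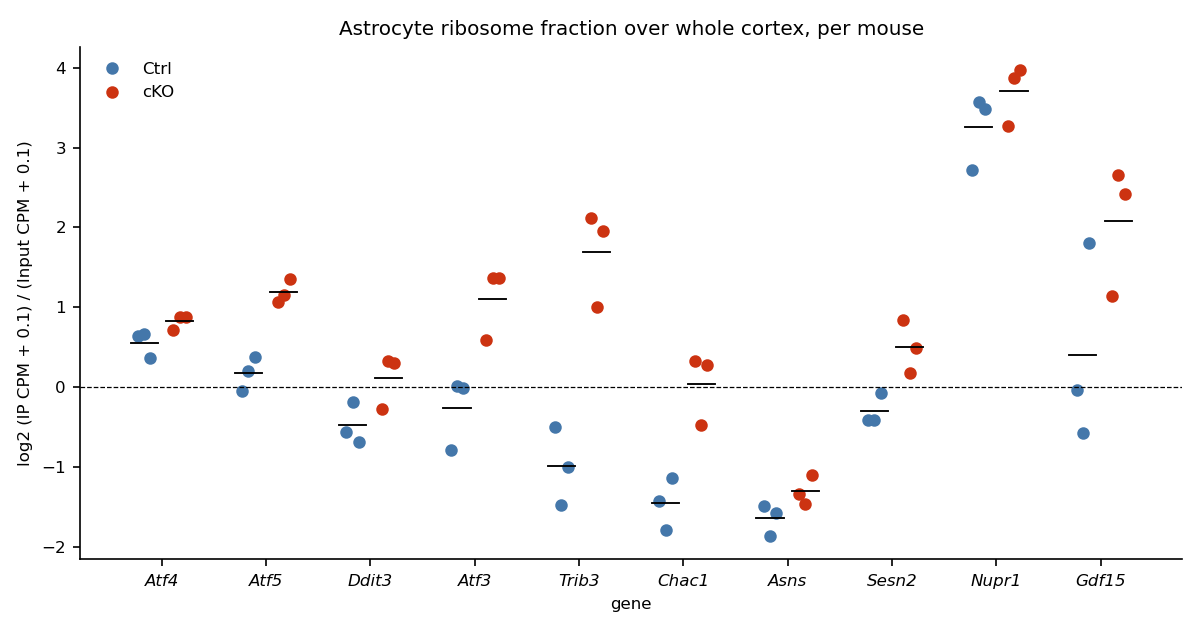
Log2 ratio of IP to Input level for each gene in each TRAP mouse (CPM, with 0.1 CPM added to both), with Ctrl in blue, cKO in red and a black line at the mean of 3 mice. Nupr1 lies at 2.72 or more in all 6 mice and Asns at -1.11 or less.

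Levels were then ordered per kilobase of exon (RPKM), which allows genes to be compared. In P24 bulk Ctrl the order ran from Atf4 at 22.2 ± 1.96 RPKM (SD, n = 4) through Asns at 17.3 ± 1.01, Atf5 at 12.7 ± 3.38 and Ddit3 at 8.79 ± 0.597 to Sesn2 at 2.39 ± 0.0322, Chac1 at 2.38 ± 0.273 and Nupr1 at 1.36 ± 0.412. Asns overlapped Atf5, and Sesn2 overlapped Chac1. Atf3, Trib3 and Gdf15 were lowest, at mean levels of 0.264, 0.172 and 0.0495 RPKM. In P24 bulk cKO the leading genes were Atf5 at 20.8 ± 1.48, Atf4 at 20.1 ± 2.19 and Asns at 18.5 ± 1.13 RPKM, with Atf5 overlapping Atf4 and Atf4 overlapping Asns. Nupr1 stood at 8.47 ± 2.58 and Gdf15 at 2.67 ± 0.985 RPKM.

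In Ctrl IP libraries Atf4 led at 66.9 ± 13.4 RPKM (SD, n = 3) and stood apart from Atf5 at 13.7 ± 1.13, Nupr1 at 12.9 ± 2.51, Asns at 11.9 ± 1.81 and Ddit3 at 10.9 ± 1.85, which overlapped each other in turn. In cKO IP libraries Nupr1 at 93.8 ± 3.61 RPKM and Atf4 at 76.9 ± 15.2 overlapped at the top. Atf5 followed at 29.96 ± 1.61 RPKM, Ddit3 at 16.9 ± 1.24 and Asns at 14.3 ± 2.88. Gdf15 at 5.03 ± 1.27 RPKM overlapped Sesn2 at 5.52 ± 0.597. Trib3 and Atf3 stayed lowest, at 1.05 ± 0.439 and 0.697 ± 0.0899 RPKM.

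Genes with the most similar pattern were sought over the 28 libraries, on log2 CPM centred within each of the 4 kinds of library, among 19555 genes that passed the filter in all 4. This could be done for 7 members and leaves out Atf3, Trib3 and Gdf15. Nupr1 was most like Syt15 (Pearson r = 0.957) and S100a4 (0.949), and Atf5 most like Ralb (0.900) and Gm5424 (0.837). Sesn2 was most like Slc39a14 (0.809) and Mras (0.806), Chac1 most like Kitl (0.789) and Olfm2 (0.787), and Asns most like Gm7198 (0.740) and Sars (0.738). Atf4 was most like Stambpl1 (0.770) and Opa3 (0.763), and Ddit3 most like Sdhd (0.893) and Gm12669 (0.879). Within the 7, the closest member was Nupr1 for Atf5 (0.772), Ddit3 for Atf4 (0.668) and Atf5 for Ddit3 (0.690). Chac1 was closest to Sesn2 (0.645) and Asns to Atf4 (0.577). All libraries of a kind share their preparation, and cKO and Ctrl libraries enter each correlation together.

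The rest of the pathway was counted from lists, and its IP values are given as a description because that comparison entered the choice of the members. The counts below stand beside 1.72% of all genes called in P24 bulk (1.26% higher) and 20.0% in the IP (11.6% higher). Nothing is read from a count near that share. The lists were written with earlier results of these data known, so counts above that share are descriptions and no independent evidence. A list of 15 genes held eIF2 kinases, phosphatase subunits and eIF2B, together with Eif2s1, Impact, Oma1 and Dele1. None of the 15 was called in P24 bulk, P17 bulk or Input libraries by the quasi-likelihood test, DESeq2 or the likelihood ratio test. Their median log2 fold change was 0.05, 0.02 and -0.04, and 2, 0 and 0 had an unadjusted p under 0.05. In the IP 2 were called lower, Eif2ak1, the kinase HRI, at -0.52 ± 0.09 and Eif2b4 at -0.38 ± 0.11. Of the ATF4 partners, 2 of 5 tested rose in P24 bulk, Cebpd by 0.78 ± 0.16 and Nfe2l2 by 0.66 ± 0.13 (adjusted p = 0.0351 and 0.0288). In the IP 2 of 6 were called higher, Cebpb by 0.96 ± 0.16 and Nfe2l2 by 0.55 ± 0.11.

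The amino acid lists are given next. Of 9 serine, one-carbon and proline enzymes 3 rose, the mitochondrial folate enzyme Aldh1l2 by 1.47 ± 0.15, Psat1 by 0.43 ± 0.06 and Shmt2 by 0.42 ± 0.07 (adjusted p = 0.000368, 0.00263 and 0.0109). Aldh1l2 was also the only gene of these lists that passed the quasi-likelihood test of the age by genotype interaction, where DESeq2 and the likelihood ratio test each called 2 (1.54 ± 0.25, adjusted p = 0.0192). In the IP 5 were called higher, led by Aldh1l2 at 2.11 ± 0.15, Mthfd2 at 1.00 ± 0.21, Pycr1 at 0.87 ± 0.24 and Shmt2 at 0.60 ± 0.13. A further 1 was called lower, and the lowest of the 9 log2 fold changes was -0.53. For the enzymes that make serine from glucose, Psat1 among them, the paper reports lower or unchanged transcripts in astrocytes by TRAP. The Psat1 rise given above was in P24 bulk, which is whole cortex and not tagged ribosomes. From TRAP the paper also reports Shmt2, Mthfd2 and Aldh1l2 as higher. Of 8 amino acid transporters Slc3a2 and Slc1a4 rose in P24 bulk by 0.39 ± 0.06 and 0.34 ± 0.07 (adjusted p = 0.00856 and 0.0404), and Slc38a2 was called higher in the IP by 0.67 ± 0.11. Of 12 cytosolic tRNA synthetases none was called in P24 bulk by any of the 3 tests (median log2 fold change 0.05; 3 with an unadjusted p under 0.05). Lars and Mars were called higher in the IP by 0.58 ± 0.10 and 0.47 ± 0.12, and Mars is the gene that overlaps Ddit3. Among 12 other ATF4 and CHOP targets tested, Eif4ebp1, which encodes a repressor of cap-dependent translation, rose in P24 bulk by 1.57 ± 0.13 (adjusted p = 9.88e-05). In the IP 4 were called higher: Tnfrsf10b, a death receptor gene, by 2.41 ± 0.31, Eif4ebp1 by 1.58 ± 0.11, Bbc3 by 0.60 ± 0.16 and Ndrg1 by 0.55 ± 0.12.

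The neighbouring stress arms were counted the same way. Of 20 genes of the ATF6 and XBP1 unfolded protein response none was called in P24 bulk by any of the 3 tests, with a median log2 fold change of 0.04 and 3 genes at an unadjusted p under 0.05. In the IP 1 was called higher and 1 lower, Edem1 at 0.54 ± 0.16 and Herpud1 at -0.49 ± 0.14, with a median of -0.08. Of 7 mitochondrial chaperones and proteases none was called in P24 bulk by the quasi-likelihood test, which gave 2 with an unadjusted p under 0.05, and DESeq2 called 1. Hspe1 and Clpp were called higher in the IP by 0.59 ± 0.09 and 0.29 ± 0.09. Of 12 activity-regulated early genes Fosb fell in P24 bulk by 0.69 ± 0.15 (adjusted p = 0.0461), and Egr1 was called lower in the IP, at -0.40 ± 0.11. Among 10 p53 targets, whose programme shares Sesn2 and Gdf15 with the stress response, 3 rose in P24 bulk and 6 were called higher in the IP. Among them were Phlda3 at 0.59 ± 0.09 and Aen at 0.38 ± 0.06 in P24 bulk (adjusted p = 0.00707 and 0.0106). In the IP the leading genes were Eda2r at 3.12 ± 0.22, Cdkn1a at 2.11 ± 0.09, Phlda3 at 1.80 ± 0.14 and Aen at 0.96 ± 0.10. In P17 bulk and Input libraries no gene of these 10 lists was called by the quasi-likelihood test, with 6 and 14 list entries at an unadjusted p under 0.05. DESeq2 and the likelihood ratio test each called 0 at P17 and 2 in Input. The parts of these pathways in the levels of the members were not tested.

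**Figure D4:**
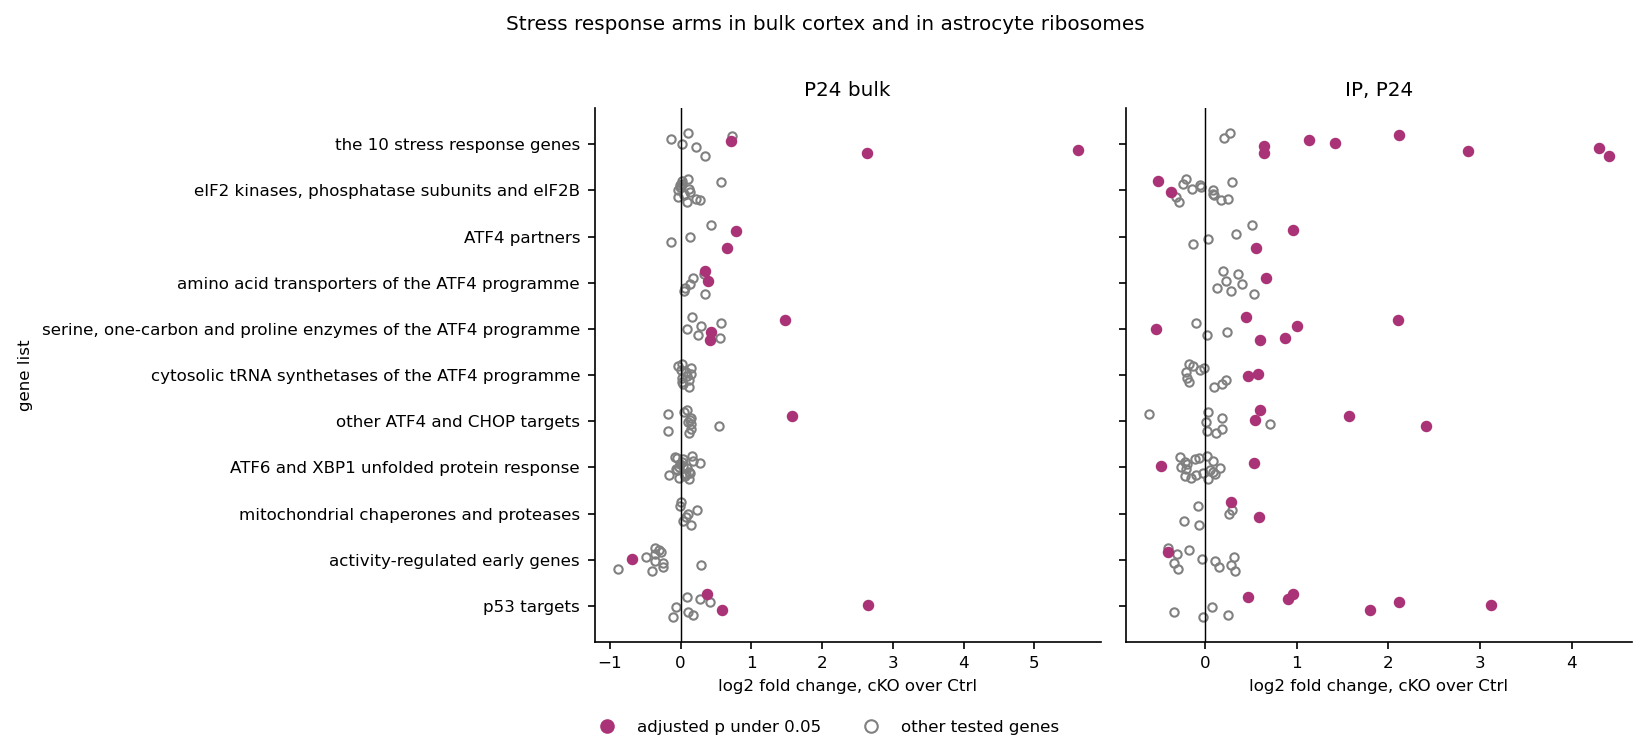
Log2 fold change of cKO over Ctrl for each tested gene of the 10 stress response genes and of 10 related lists, in P24 bulk (left) and IP libraries (right); filled points passed an adjusted p of 0.05. The members run from -0.14 to 5.61 in P24 bulk and from 0.21 to 4.41 in the IP. The unfolded protein response genes run from -0.17 to 0.27 in P24 bulk and from -0.49 to 0.54 in the IP.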

How the data were processed

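The authors mapped reads to mm10 with STAR in Galaxy (processing notes also name edgeR) and deposited raw counts per Ensembl gene in 3 tables (P17 bulk, P24 bulk, TRAP) of 28 libraries; the counting tool, its strand setting and the annotation are not given in the sources used here. The bulk tables carry their age in their names. Symbols and exon lengths came from GENCODE M21 (GRCm38).

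Tests used edgeR 4.0.16 (R 4.3.3): TMM scaling, filterByExpr (minimum count 10, minimum total 15), quasi-likelihood test, two-sided, Benjamini-Hochberg over all genes tested, threshold 0.05, only the compared groups in each fit; standard errors are the log2 fold change over the square root of F. On simulated data (P24 bulk and IP) all 3 tests made more false calls than the threshold allows, fewest the quasi-likelihood test, most the likelihood ratio test, with DESeq2 between them. DESeq2 1.42.0 and other scalings, filters and left-out libraries were alternatives. Same-numbered P17 mice deviated together (r = 0.321, 0.184, 0.380 and 0.167). In the IP each cKO library was also most like the Ctrl library of its number, but weakly (r = 0.089, 0.032 and 0.092). Not all pairs did so in P24 bulk or Input. IP and Input of a number are 1 mouse, though in cKO mice their r was -0.040, -0.083 and 0.115. Replicate libraries differed beyond counting noise (chi-square per degree of freedom 2.79 to 89.8 over 36 pairs).

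The members and lists were chosen with earlier results of these data known. The named genes of each list were at most 4 past the threshold with the largest change, if their average log2 CPM reached 1. The level of the targeted gene is not reported here.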

Additional observations from a re-analysis of the deposited data

Results flagged for a closer look

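Atf3 in P24 bulk cKO mice held a library far from the others, replicate 1 at 0.47 CPM (7 counts) beside 1.11, 1.11 and 1.14 CPM in the other three. It was picked by Dixon's test at the 95% level in 1 of 40 groups of 4 examined, and chance picks about 1 in 20. The same library was also the lowest of its group for Nupr1 and Gdf15.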

How the results depend on the processing

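Of 1182 values of single members under other settings, 1107 kept their direction and their side of the threshold, 32 passed it, 21 lost it and 22 turned direction; the cause was not tested. All that turned did so in leave-one-out fits of values near 0, which ranged for P24 bulk Chac1 from -0.0937 to 0.12, for P17 Atf5 and Asns from -0.0364 to 0.11 and -0.0364 to 0.0511, and for the age interaction of Atf3 from -0.0289 to 0.56. In Input they ranged for Ddit3 from -0.20 to 0.23, Sesn2 -0.23 to 0.0251, Atf4 -0.28 to 0.10, Asns -0.25 to 0.0187 and Atf5 -0.0589 to 0.26. For IP against Input they ranged in Ctrl mice for Atf5 from -0.0305 to 0.30 and Gdf15 -0.46 to 0.66, and in cKO mice for Ddit3 from -0.0745 to 0.36 and Chac1 -0.0635 to 0.35.

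Members called went from 1 to 2 in Input and from 0 to 3 in the fraction interaction under DESeq2, the likelihood ratio test and no filter. In the age interaction they went from 0 to 2 under these and under the replicate block. Leaving out 1 library gave 2 to 3 called in P24 bulk, 0 in P17, 8 in IP, 0 to 1 in Input, 5 to 6 and 6 to 8 for IP against Input in Ctrl and cKO mice, 0 to 2 for age and 0 to 4 for fraction (4 without Input cKO replicate 1). The replicate block changed no other member call but Asns in the IP (0.26, adjusted p = 0.0383). Outside P17 the shared numbers did not pair the P24 bulk or Input genotype groups throughout and paired the IP groups weakly (r from -0.03 to 0.22). In the fit of all TRAP libraries, IP Ddit3 lost its call.

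Calls over all genes went in P24 bulk from 388 to 619 under the likelihood ratio test and 618 without a filter, and 216 to 950 without 1 library. In P17 they went from 20 to 41 under DESeq2, 61 under the likelihood ratio test, 55 without a filter, 109 under the block and 11 to 19 without 1 library. In IP they went from 4782 to 1684 in the fit of all libraries, 6735 under the block and 2633 to 4810 without 1 library. In Input they went from 26 to 127, 137 and 112 under DESeq2, the likelihood ratio test and no filter, 15 under the stricter filter, 8 under the block, 127 with all libraries and 4 to 112 without 1 library. For age they went from 11 to 54, 52, 62, 55 (block) and 4 to 149, and for fraction from 15 to 271, 219, 189, 6 (block) and 3 to 432. The highest of these leave-one-out counts came without P24 bulk cKO replicate 1 (950 and 149) or Input cKO replicate 1 (112 and 432). Atf3, Trib3 and Gdf15, with at most 11 counts in any bulk Ctrl library, are limited by depth.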
